A study of Mus musculus with 6 samples.

Results

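The haematopoietic growth factor receptors are cell surface receptors through which blood cells and their progenitors read the cytokines that keep them alive and dividing. The genes were chosen by symbol, as the receptors Flt3, Kit and Csf1r of the receptor tyrosine kinase class and the chains Csf2ra, Csf2rb, Csf2rb2, Csf3r and Il3ra of the class I cytokine receptors, and all 8 had a row among the 14535 genes of the deposited count table. RNA-seq read them out in antigen-presenting cells of the C57BL/6 mouse spleen labelled type-2 conventional dendritic cells (cDC2s). The WT group (genotype label WT) had 3 libraries. The IRF4-deficient group also had 3, with the genotype CD11c-Cre Irf4fl/fl: Cre under the promoter of CD11c (Itgax) is meant to delete the floxed gene in cells that express CD11c. No group is labelled as carrying Cre without the floxed allele, and the sources used here do not give age, sex, pooling or sort gate. The sample-sheet numbers run separately for each genotype, so their order and the genotype cannot be told apart. Nothing in the labels states that the replicates were separate animals, so p-values reflect the spread between libraries, which may be technical.

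The tyrosine kinase receptors dimerize on binding their ligand and phosphorylate themselves, whereas the class I receptors carry no kinase and signal through JAK kinases and STAT proteins. Flt3 with its ligand drives the development and upkeep of conventional dendritic cells, Csf1r does the same for monocytes and macrophages, and the GM-CSF receptor acts on dendritic cells and on myeloid cells more widely. The GM-CSF receptor pairs an alpha chain (Csf2ra) with the common beta chain (Csf2rb), which also serves the IL-3 and IL-5 receptors. Mice have an additional beta chain, Csf2rb2, that serves only the IL-3 receptor, whose alpha chain is Il3ra.

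Library totals ranged from 7421605 to 11459920 counts. Irf4, the deleted gene, stood at 90.8, 65.3 and 83.95 CPM (counts relative to library size, scaled with TMM factors) in the IRF4-deficient libraries, given here and throughout from replicate 1 to 3, against 291.8, 295.8 and 345.0 CPM in the WT ones, lower in every library labelled IRF4-deficient. Irf4 counts thus remained in the IRF4-deficient libraries, and how complete the deletion was in these cells was not tested. The first principal component (56.8% of the variance) separated the genotypes, and the second (14%) set IRF4-deficient replicate 3 apart. All 8 listed marker genes of conventional dendritic cells passed the low-count filter, among them H2-Aa at a mean of 10579 CPM in WT and 8573 CPM in IRF4-deficient libraries. Itgax stood at 1393 and 1700.4 CPM, and Zbtb46 at 80.9 and 42.3 CPM. By the edgeR test used below, 7 of the 8 were lower in IRF4-deficient libraries and 1 (Itgax) higher.

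Because Csf2rb and Csf2rb2 are near-identical, their sequences bear on how their counts can be read. On GRCm38 chromosome 15, Csf2rb2 (78282507 to 78305721, minus strand) and Csf2rb (78325752 to 78353847, plus strand) lie head to head with 20030 bases between them. Their longest coding sequences in GENCODE M21, of 2688 bases for Csf2rb and 2634 for Csf2rb2, were identical at 95.2% of aligned bases, with 125 mismatches and a longest identical run of 242 bases. Of the 75-base windows of the Csf2rb transcript, 10.7% also occurred in the Csf2rb2 transcript, and 11.1% the other way round. Read length is not given in the sources used here, so the share of reads that the counting could not place is unknown. The first 60 coding bases of each gene differ at 1 base (capitals mark mismatches):
Csf2rb: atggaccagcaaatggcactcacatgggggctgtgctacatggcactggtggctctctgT
Csf2rb2: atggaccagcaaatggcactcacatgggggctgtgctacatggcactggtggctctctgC
The 60-base stretch with the most mismatches, 13, starts at coding base 304 of Csf2rb and 307 of Csf2rb2, again with mismatches in capitals:
Csf2rb: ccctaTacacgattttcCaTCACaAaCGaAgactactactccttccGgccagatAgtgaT
Csf2rb2: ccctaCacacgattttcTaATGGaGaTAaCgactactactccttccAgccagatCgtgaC
Reads over the second stretch can be told apart, while reads that fall in the shared windows cannot.

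In IRF4-deficient cDC2s, Flt3, Kit, Csf2rb and Csf2rb2 fell by 1.55- to 1.93-fold, Csf1r and Csf3r rose 2.16- and 2.10-fold, and Csf2ra and Il3ra were not called. edgeR's quasi-likelihood test at a Benjamini-Hochberg adjusted p under 0.05 thus called 4 members lower and 2 higher. Over all 11934 tested genes it called 20.4%, with 10.5% lower and 9.87% higher. The groups did not overlap for the 6 called members, and over all tested genes they did not overlap for 35.6%. All 8 members passed the low-count filter. In these bulk libraries a smaller share of expressing cells and less RNA per cell cannot be told apart.

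**Figure D1:**
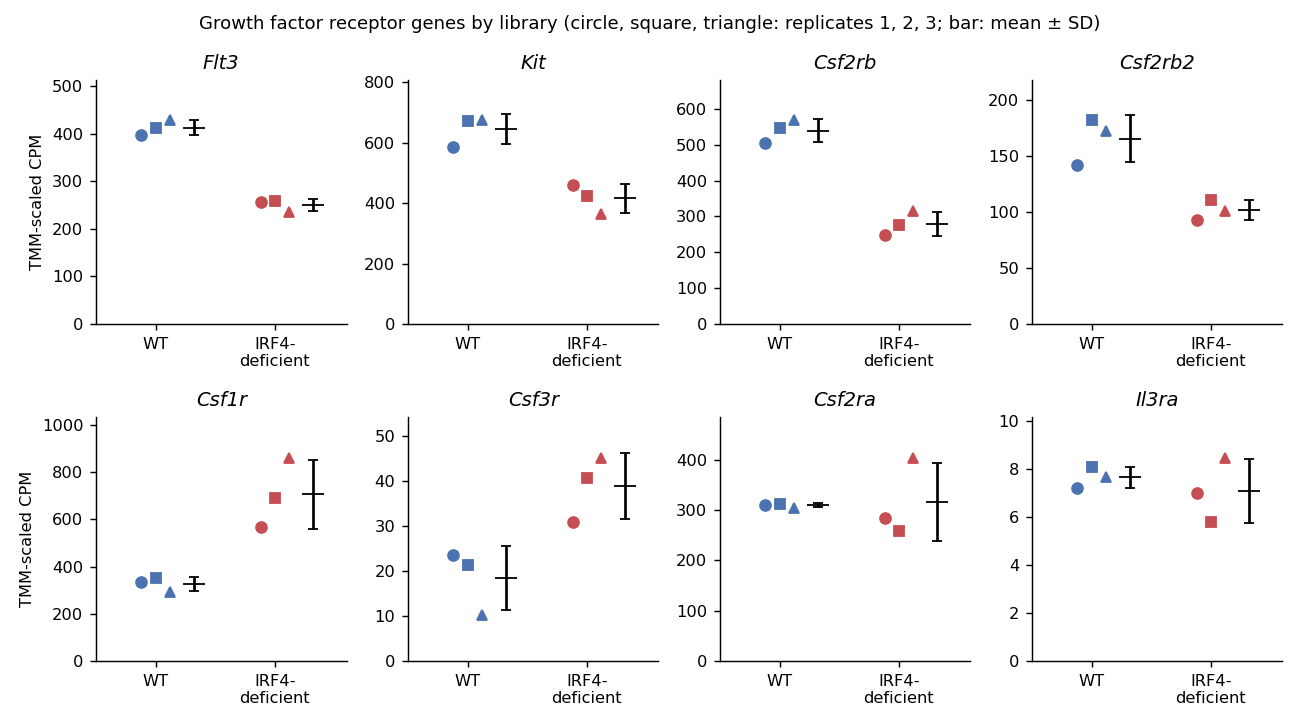
Level of each receptor gene in each library, in TMM-scaled CPM on linear axes from 0. Points are the 3 replicates of a group and the bar beside them is the mean with its SD; the top row holds the 4 members called lower, and Csf1r and Csf3r follow as the 2 called higher.

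Flt3 (chromosome 5, 147330741 to 147400489, minus strand, 24 exons), the receptor for FLT3 ligand, had 257, 259 and 235 CPM in IRF4-deficient libraries and 397, 413 and 428 CPM in WT libraries. All IRF4-deficient libraries lay below all WT libraries, and the spread within each group was small. The mean went from 412.5 ± 15.7 to 250.4 ± 13.2 CPM (SD, n = 3 each), a log2 fold change of -0.72 with a standard error (SE) of 0.08 (95% interval -0.89 to -0.55; edgeR adjusted p = 2.86e-06).

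Kit (chromosome 5, 75574916 to 75656722, plus strand, 21 exons), the stem cell factor receptor best known on progenitors and mast cells, had the highest summed WT counts of the members, 16585. Its levels were 461, 423 and 363 CPM in IRF4-deficient and 587, 674 and 674 CPM in WT libraries. The groups did not overlap, and IRF4-deficient replicate 3 was the lowest library. The log2 fold change was -0.63 (SE 0.09, 95% interval -0.83 to -0.44; edgeR adjusted p = 5.02e-05). Of 8 listed mast cell and basophil genes, 1 (Prss34) had a row in the table, with a summed level of 0 CPM in each IRF4-deficient library and at most 0.91 CPM in WT.

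Csf2rb, the common beta chain (15 exons), fell the most of the 8 members. It stood at 249, 275 and 315 CPM in IRF4-deficient and 504, 546 and 567 CPM in WT libraries, with a wide gap between the groups. The mean went from 539.0 ± 32.4 to 279.8 ± 33.2 CPM (SD, n = 3 each), a log2 fold change of -0.95 (SE 0.09, 95% interval -1.14 to -0.75; edgeR adjusted p = 3.89e-07).

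Its neighbour Csf2rb2 (14 exons) had 93.5, 111 and 101 CPM in IRF4-deficient and 142, 182 and 173 CPM in WT libraries, again without overlap. The log2 fold change was -0.70 (SE 0.11, 95% interval -0.94 to -0.47; edgeR adjusted p = 0.000112). With the rows of both beta chains summed, so that a counted read enters whichever gene it was given to, the log2 fold change was -0.88 (edgeR adjusted p = 4.87e-07), and reads that the counting left out of both rows are in neither value. Within a library, the count of Csf2rb over that of Csf2rb2 was 2.66, 2.47 and 3.12 in IRF4-deficient and 3.55, 2.998 and 3.28 in WT libraries. These ratios overlapped between the groups, with a log2 difference of -0.26 and p = 0.2 in an exact 2-sided permutation test over libraries, whose smallest possible p is 0.1.

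The alpha chain Csf2ra (chromosome 19, 61223957 to 61228429, minus strand, 11 exons) did not follow its beta chain. Its levels were 284, 259 and 403 CPM in IRF4-deficient and 310.5, 313 and 305 CPM in WT libraries. The WT libraries were close together, with an SD of 4.20 CPM, while IRF4-deficient replicate 3 stood above every other library and replicates 1 and 2 below every WT library. The log2 fold change was 0.03 (SE 0.13, 95% interval -0.26 to 0.31; edgeR adjusted p = 0.915), and without IRF4-deficient replicate 3 it was -0.19 (adjusted p = 0.13). The interval includes falls and rises of up to about 1.2-fold, so equal expression is not shown.

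A count ratio within a library needs no scaling between libraries. Csf2rb over Csf2ra was 0.88, 1.06 and 0.78 in IRF4-deficient libraries and 1.62, 1.75 and 1.86 in WT libraries. The groups did not overlap, with means of 0.91 ± 0.14 and 1.74 ± 0.12 (SD, n = 3 each). The log2 difference was -0.95, and the exact 2-sided permutation test gave p = 0.1, the smallest it can give with 3 libraries against 3. These are ratios of raw counts of genes of different length and not the stoichiometry of the chains.

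**Figure D2:**
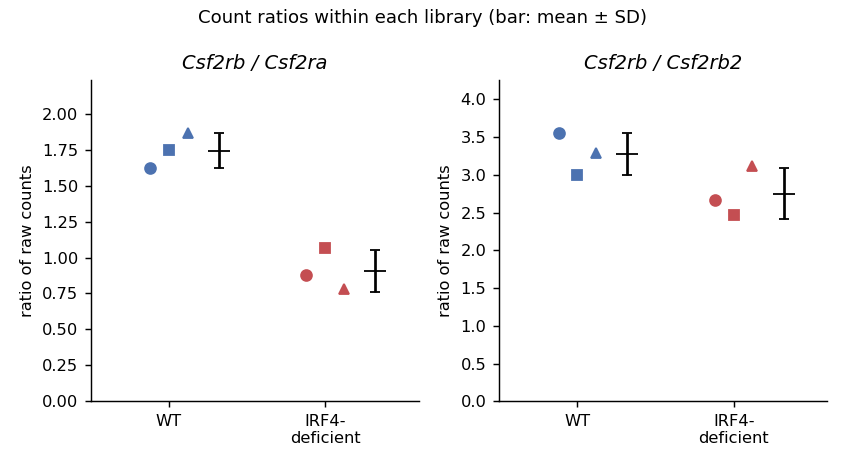
Ratio of raw counts of Csf2rb to Csf2ra (left) and to Csf2rb2 (right) within each library, on linear axes from 0, with the group mean and SD. The left-hand ratios run from 0.78 to 1.06 in IRF4-deficient and from 1.62 to 1.86 in WT libraries, while the right-hand ones overlap.

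Il3ra, the IL-3-specific alpha chain (chromosome 14, 14346275 to 14356011, plus strand), was the least abundant member, with 199 counts over the IRF4-deficient and 197 over the WT libraries. It had 6.99, 5.81 and 8.46 CPM in IRF4-deficient and 7.19, 8.09 and 7.65 CPM in WT libraries, which overlap. The log2 fold change was -0.11 (SE 0.28; edgeR adjusted p = 0.837). Its 95% interval of -0.71 to 0.49 includes falls of up to about 1.6-fold and rises of up to about 1.4-fold, so equal expression is not shown.

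Csf1r, which binds the macrophage growth factors CSF1 and IL-34 (chromosome 18, 61100598 to 61132149, plus strand, 21 exons), had 566, 689 and 860 CPM in IRF4-deficient libraries and 334, 351 and 293 CPM in WT libraries. All IRF4-deficient libraries lay above all WT libraries, but they were far from uniform, with replicate 3 the highest. The mean went from 325.9 ± 30.1 to 704.8 ± 147 CPM (SD, n = 3 each), a log2 fold change of 1.11 (SE 0.13, 95% interval 0.83 to 1.39; edgeR adjusted p = 4.19e-05). Its span overlaps Hmgxb3 on the opposite strand, and without a known strand setting their reads cannot be told apart in the shared part. Hmgxb3 had a log2 fold change of -0.12 (SE 0.15) and was not called.

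Csf3r, the G-CSF receptor best known on neutrophils (chromosome 4, 126024550 to 126044440, plus strand, 17 exons), had 30.9, 40.8 and 45.2 CPM in IRF4-deficient and 23.6, 21.4 and 10.4 CPM in WT libraries. The groups did not overlap, and WT replicate 3, with 76 counts, was lowest. The log2 fold change was 1.07 (SE 0.25, 95% interval 0.54 to 1.597; edgeR adjusted p = 0.00604), and it went down to 0.79 (adjusted p at most 0.0366) over the fits that left out 1 library. Neutrophil transcripts were near 0, with the 6 listed genes that had a row summing to 2.34 to 4.05 CPM in IRF4-deficient and 3.41 to 13 CPM in WT libraries.

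The summed macrophage and monocyte markers were higher in IRF4-deficient libraries, as were the members that rose. The 12 red pulp macrophage markers summed to 1697, 2436 and 3169 CPM in IRF4-deficient libraries and 1170, 1370 and 1029 CPM in WT libraries, and 7 were called higher and 0 lower. Csf1r had the same order of libraries in both groups as these markers, and Csf3r in the IRF4-deficient group but not in WT. The 10 monocyte markers summed to 1582, 1848 and 1756 CPM against 988, 872 and 709 CPM, with 6 called higher and 0 lower. Csf1r did not have the library order of the monocyte sums in either group, and Csf3r had it in the WT group only. Such orders rest on 3 libraries a group, and their cause was not tested. In both lists the sum in every IRF4-deficient library lay above that in every WT library. Not every marker rose. The monocyte marker Ms4a4c was lower in every IRF4-deficient library (mean 149 against 172.6 CPM) and not called (edgeR adjusted p = 0.137). Nr4a1 overlapped between the groups, as did the red pulp markers Spic, Cd163 and Mertk. Of the 12 red pulp markers 5 were not called, Spic among them (edgeR adjusted p = 0.282). The most abundant genes over both lists were Vcam1, Hmox1 and Lyz2, with WT means of 417, 162 and 402 CPM and IRF4-deficient means of 898, 421 and 897 CPM. Of these, Hmox1 was not called (edgeR adjusted p = 0.064). With the mean log2 level of the red pulp markers as a covariate, Csf1r kept a log2 fold change of 0.53 (edgeR adjusted p = 0.0252), Csf3r was at 0.31 and no longer called (adjusted p = 0.724), and Csf2ra was at -0.33 (adjusted p = 0.423). In the same fit Flt3 was at -0.61 (adjusted p = 0.0171), Csf2rb at -1.19 (8.00e-05), Csf2rb2 at -0.83 (0.0141), and Kit at -0.36 and no longer called (0.204). With the monocyte markers as the covariate, Csf2rb alone was called among the members (-0.96, adjusted p = 0.0275). Both covariates separate the genotypes, so these fits leave little of the genotype difference to be estimated. The part of such cells in the results was not tested further.

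**Figure D3:**
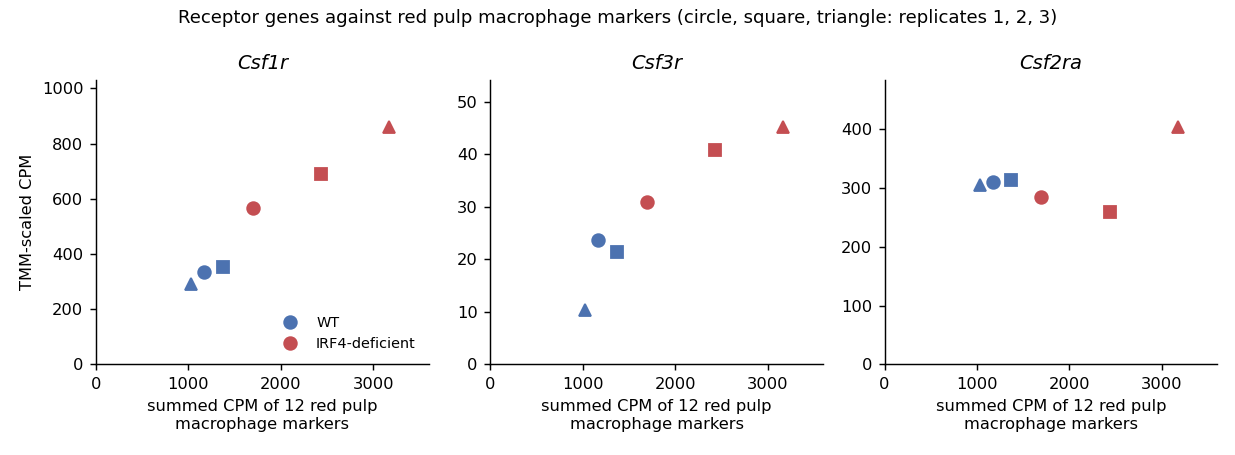
Level of Csf1r, Csf3r and Csf2ra in each library (TMM-scaled CPM) against the summed CPM of 12 red pulp macrophage markers in the same library, on linear axes from 0. Csf1r reaches 860 CPM in IRF4-deficient replicate 3, which also has the highest marker sum, 3169 CPM, and Csf2ra stands at 403 CPM in that library.

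Markers of other cell types were also examined, and sums over lists of different genes do not rank cell types by amount. The summed levels in IRF4-deficient and WT libraries were 97.4 to 131 and 67.2 to 132 CPM for 6 B cell markers, 11.6 to 19.3 and 10.1 to 14.8 CPM for 6 T and NK cell markers, and 208 to 235 and 214 to 251 CPM for 8 plasmacytoid dendritic cell markers. The plasmacytoid sum was mostly Tcf4 and Ccr9, and 2 of these markers were called higher and 1 (Ccr9) lower. Of the B cell markers, 1 was called higher and 1 lower. Eosinophil markers (4 genes) summed to 55.8 to 96.1 and 34.97 to 44.3 CPM, nearly all of it Ccr3, and 2 of the 3 tested were called higher. Progenitor markers (5 genes) summed to 300.4 to 342 and 223.6 to 245 CPM, mostly Cd48, with 3 called higher and 1 (Ly6a) lower. cDC1 markers (7 genes) summed to 199.9 to 277 and 189 to 202 CPM, with 4 called higher and 1 lower. Among 8 cDC2 markers 2 were called higher and 2 lower, as with Itgam (WT 617, IRF4-deficient 1869 CPM) and Cd4 (WT 555, IRF4-deficient 131 CPM). Of the 8 conventional dendritic cell markers, which include Flt3 itself, 7 were called lower and 1 (Itgax) higher. The part of these differences in the receptor results was not tested.

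Levels of different genes were compared as CPM per kilobase of exon. In WT libraries Csf2ra was highest at 107.7 ± 1.46, followed by Csf2rb at 74.1 ± 4.45, Kit at 72.4 ± 5.63, Flt3 at 66.8 ± 2.55, Csf1r at 56.5 ± 5.21, Csf2rb2 at 34.9 ± 4.44, Csf3r at 5.12 ± 1.97 and Il3ra at 2.58 ± 0.15 CPM per kilobase (SD, n = 3 each). The ranges of Csf2rb, Kit and Flt3 overlapped, and the other neighbours in this order did not. In IRF4-deficient libraries Csf1r led at 122.1 ± 25.5, overlapping with Csf2ra at 109.9 ± 26.9, and then came Kit at 46.6 ± 5.50, Flt3 at 40.6 ± 2.13 and Csf2rb at 38.5 ± 4.56 CPM per kilobase, each overlapping with the next. Csf2rb2 stood at 21.5 ± 1.89, Csf3r at 10.8 ± 2.03 and Il3ra at 2.39 ± 0.45. Csf1r thus lay below Flt3 in every WT library and above it in every IRF4-deficient library on this scale, with percentiles among tested genes of known length going from 95.1 in WT to 98.3, while Flt3 went from 96.0 to 92.1.

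**Figure D4:**
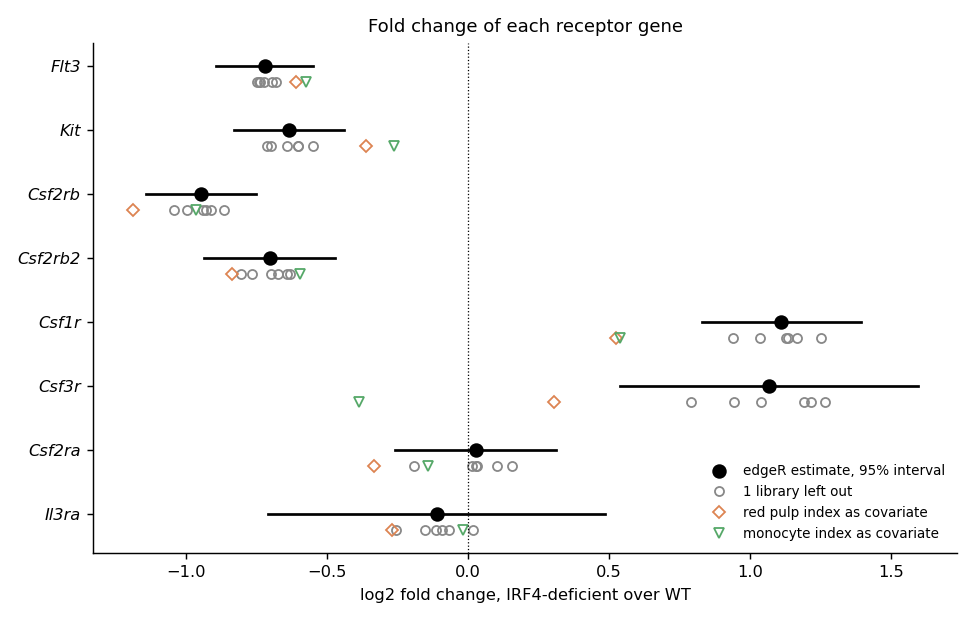
Log2 fold change of each receptor gene, IRF4-deficient over WT. Black points and lines are the edgeR estimate and its 95% interval, grey circles the 6 fits that left out 1 library, and coloured symbols the fits with a marker index as covariate. The grey circles of the 6 called members stay on the side of 0 of the estimate, while those of Csf2ra reach -0.19.

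The ligands of the receptors were scarce. Of 8 listed, Flt3l, Kitl and Csf1 had a row. Flt3l, the ligand of Flt3, had 15.8, 13.1 and 21.2 CPM in IRF4-deficient and 26.4, 24.9 and 19.9 CPM in WT libraries, which overlap, and was not called (log2 fold change -0.51, SE 0.21; edgeR adjusted p = 0.0936). WT means were 2.65 CPM for Kitl and 3.26 CPM for Csf1, IRF4-deficient means 3.72 and 1.82 CPM, and neither was called.

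Of 19 tested other class I receptor chains, 7 were called higher and 2 lower, with a median log2 fold change of 0.38 beside 0.00251 over all tested genes. The shares called over all tested genes, 9.87% higher and 10.5% lower, are also the background for the lists that follow. Il13ra1, a chain of the IL-4 and IL-13 receptors, rose 2.66-fold (SE of the log2 value 0.14), from 53.5, 41.8 and 35.4 CPM in WT to 115.2, 106.3 and 125.4 CPM in IRF4-deficient libraries. Lifr, the leukaemia inhibitory factor receptor, rose 2.33-fold, Il7r, the IL-7 receptor alpha chain, 2.17-fold, Il27ra 2.38-fold and Il12rb2 1.81-fold. Il15ra, which presents IL-15 to other cells, fell 2.25-fold to 12.01 ± 0.23 CPM. Il5ra, the remaining partner of Csf2rb, had 80 counts over the IRF4-deficient and 17 over the WT libraries and was not called (edgeR adjusted p = 0.077). It stood at 1.38, 1.11 and 6.235 CPM in IRF4-deficient and 1.245, 0.18 and 0.82 CPM in WT libraries, which overlap. The higher sum came mostly from IRF4-deficient replicate 3.

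Of 35 tested genes of proximal signalling, 8 were called higher and 5 lower, with a median log2 fold change of 0.05. Cblb, a ubiquitin ligase that dampens receptor signalling, fell 1.91-fold, from 262, 340 and 310 CPM in WT to 132, 151 and 195 CPM in IRF4-deficient libraries (edgeR adjusted p = 0.000112). The kinase gene Tyk2 fell 1.70-fold. Fgr, a SRC family kinase, rose 1.39-fold and Plcg2, a phospholipase C, 1.39-fold. Jak2, the kinase that binds Csf2rb, had a mean of 1049.8 CPM in WT and 906 CPM in IRF4-deficient libraries and was not called (log2 fold change -0.21, SE 0.09). Neither were Stat5a (WT 59.7, IRF4-deficient 61.7 CPM) and Stat5b (WT 71.6, IRF4-deficient 77.3 CPM), the transcription factors the beta chain activates. Jak2, Stat5a, Stat5b, Cish, Spi1 and Hmgxb3 fall outside the rule for named genes and were chosen after their values were seen. The same holds for Zbtb46, Spic, Cd163, Mertk and the uncalled genes listed as STAT5 targets.

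Of 14 tested genes listed as STAT5 targets, 6 were called lower and 1 higher, with a median log2 fold change of -0.35. Over all tested genes 10.5% were called lower and 9.87% higher. The other 7 on the list, Socs1, Socs3, Pim1, Pim2, Bcl2l1, Osm and Myc, were not called. STAT5 activity was not tested. Socs2, a feedback inhibitor of cytokine receptor signalling, fell 11.4-fold, from 50.2, 62.1 and 55.6 CPM in WT to 3.96, 4.08 and 6.68 CPM in IRF4-deficient libraries (log2 fold change -3.52, SE 0.21; edgeR adjusted p = 5.57e-10). Ccnd2, a D-type cyclin, fell 2.75-fold, Id2 1.31-fold and Mcl1, a survival factor, 1.25-fold. Bcl6, a transcriptional repressor that STAT5 is best known to repress rather than induce in lymphocytes, was on the same list and fell 1.47-fold. Ccnd3 was the gene called higher, 2.10-fold. The feedback inhibitor Cish had 8 and 7 counts over the IRF4-deficient and WT libraries and was not tested.

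**Figure D5:**
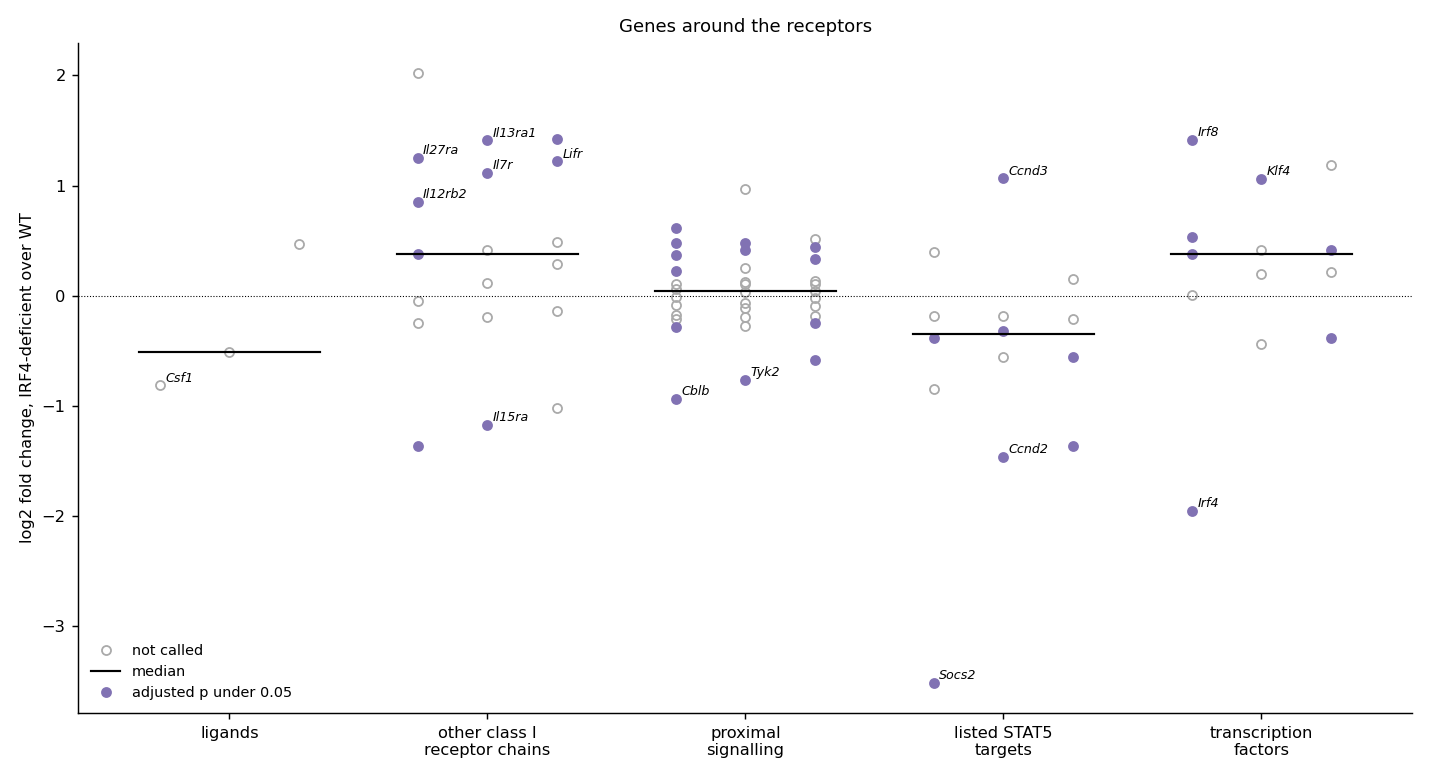
Log2 fold change (IRF4-deficient over WT) of the tested genes of 5 lists around the receptors, with the median of each list as a bar. Filled points have an edgeR adjusted p under 0.05; the sideways position has no meaning, and some of the genes farthest from 0 are named. Socs2 lies lowest at -3.52.

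Of 13 tested transcription regulators listed as tied to the receptor genes, 5 rose and 2 fell, and those that fell include the deleted Irf4. Whether they act on the receptor genes in these cells was not tested. Irf8 rose 2.67-fold, Klf4 2.09-fold, Ikzf1 (Ikaros) 1.45-fold, Stat3 1.34-fold and Runx3 1.30-fold. Spi1 (PU.1), listed under its older symbol Sfpi1, had means of 344 CPM in WT and 398 CPM in IRF4-deficient libraries and was not called.

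Over the 6 libraries, the genes most like each member in log2 CPM were Slamf8 and Usp6nl for Flt3 (Pearson r 0.999 and 0.999), Aqr and Ly75 for Kit (0.999 and 0.997), Cd1d1 and Sepsecs for Csf2rb (0.997 and 0.997), Zfp111 and Fam60a for Csf2rb2 (0.997 and 0.996), and Tnfrsf21 and Smpdl3a for Csf1r (0.996 and 0.996). Csf3r was most like Ccl6 and Tab1 (0.996 and 0.992), Il3ra most like Siah2 and Cog1 (0.996 and 0.991) and Csf2ra most like 5730494N06Rik and Fam98b (0.989 and 0.984). These are descriptions over 6 libraries that share a genotype difference, taken from 9917 genes. For the called members between 93 and 432 genes had an r above 0.95, and for Csf2ra and Il3ra 16 and 25.

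The RefSeq promoter table (GRCm38.p6) held 7 windows for 6 members, Flt3, Kit, Csf2ra, Csf2rb2, Csf3r and Il3ra. The 250 bases before each annotated start were searched on both strands for motifs of IRF4 or its partners. For IRF4 these were GAAA and GAAA spaced by 2 bases (interferon-stimulated response element type) and GGAA and GAAA spaced by 2 bases (the ETS-IRF composite type). For partners it was TGA and TCA spaced by 1 base (AP-1), with no GAAA required beside it. None of the 7 windows held any of these motifs, and 2.98%, 2.3% and 6.75% of all 32851 windows did. With shares this low, an absence from 7 windows cannot be read as a result. Csf2rb and Csf1r, the members that fell and rose the most, had no window. The PU.1-type core GAGGAA, added after the table was seen, occurred in the windows of 4 of the 6 members, Csf2ra, Csf2rb2, Csf3r and Kit, and in 23.3% of all windows. Both Kit windows overlap and hold the same core, which makes 5 of the 7 windows. It was found beside members that fell, rose and were not called. The upstream stretches of 2 members that fell are shown as examples, with any GAGGAA or its complement TTCCTC in capitals, for Flt3 at chr5:147400490-147400739 on the minus strand and for Csf2rb2 at chr15:78305722-78305971 on the minus strand:
Flt3: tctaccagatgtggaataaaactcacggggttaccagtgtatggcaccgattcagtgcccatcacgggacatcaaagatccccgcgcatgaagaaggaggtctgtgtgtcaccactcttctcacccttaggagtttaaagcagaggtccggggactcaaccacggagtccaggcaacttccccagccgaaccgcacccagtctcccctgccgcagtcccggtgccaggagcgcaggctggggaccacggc
Csf2rb2: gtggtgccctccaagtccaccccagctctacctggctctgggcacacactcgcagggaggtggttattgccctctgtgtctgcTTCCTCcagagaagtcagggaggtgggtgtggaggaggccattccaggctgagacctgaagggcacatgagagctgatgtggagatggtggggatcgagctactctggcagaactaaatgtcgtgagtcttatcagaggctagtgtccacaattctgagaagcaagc
The window of Csf2rb2 holds 1 such core, as the complement, and that of Flt3 holds 0.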

How the data were processed

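Splenic cDC2 RNA was made into libraries by standard Illumina methods per the labels' protocols. The values are whole-number read counts for each gene symbol, deposited by the authors in 1 table of all libraries. The submitters' processing notes list mm10 as the build and STAR, HTSeq and DESeq2 as tools, with no version; the sources used here do not give the annotation, strand setting or row filter. WT columns were tied to sample titles through the labels' source names, because the column numbers differ from those of the titles. Replicate numbers here are those of the titles. Genes were filtered with filterByExpr, scaled by TMM and tested over the whole table with edgeR 4.0.16 (glmQLFit and glmQLFTest with robust shrinkage, prior count 0.125, R 4.3.3), with Benjamini-Hochberg adjustment over 11934 genes; the SE derives from the F statistic. Replicates differed beyond counting noise (chi-square per degree of freedom 7.66 to 15.9). The fit was tested on simulated data. GENCODE M21 (GRCm38, equal to mm10) gave lengths, locations and transcripts; 13064 symbols matched 1 gene, and 2 list genes were matched through older symbols.

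Members and lists were chosen with earlier results of these data known. Named are the members, every ligand, up to 6 genes per pathway list with the smallest p, up to 4 per marker list with the highest CPM, Irf4, and the 2 genes most like each member (mean of at least 5 CPM). Alternatives were DESeq2 1.42.0, limma-voom (limma 3.58.1), other scaling factors and filters, the replicate block, removal of Rn45s and Malat1, summed beta chains, marker indices as covariates and leaving out each library. Some results that this rule would name are not reported here.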

Additional observations from a re-analysis of the deposited data

How the results depend on the processing

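In the 16 alternatives without a covariate, the 6 called members kept their direction and their call wherever they were fitted on their own. The log2 fold change ranged from -0.75 to -0.68 for Flt3, -0.71 to -0.55 for Kit, -1.04 to -0.86 for Csf2rb, -0.80 to -0.63 for Csf2rb2, 0.94 to 1.25 for Csf1r and 0.79 to 1.27 for Csf3r. The uncalled Csf2ra changed sign without IRF4-deficient replicate 3 (-0.19, in a leave-one-out range of -0.19 to 0.16) and Il3ra without IRF4-deficient replicate 2 (0.018, range -0.25 to 0.018). With the replicate block, 4 members were called lower and 2 higher and 2267 genes in all, against 2429. Libraries with the same number in their titles did not deviate together (r of -0.00479, 0.0512 and -0.0106), so the numbers were not taken as pairs. The numbers of the WT count columns differ from these and were not used. With the red pulp index as covariate 1 member was called higher, and of all genes 838, 391 higher and 447 lower; Csf2ra was at -0.33. With the monocyte index 1 member was called lower and 0 higher, and of all genes 272, 112 higher and 160 lower; Csf2ra was at -0.14 and Csf3r at -0.39. These indices differ between the genotypes, so the fits have little genotype contrast left. With the longest transcript as length, 6 of 8 members kept their place in the order of WT levels. Il3ra, at about 200 counts a group, had the largest SE of the members, 0.28.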
